A study of Saccharomyces cerevisiae with 11 samples.

Results

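The report covers 40 genes of the budding yeast (Saccharomyces cerevisiae) cell wall: 14 wall proteins, 17 genes that make, reshape or cross-link glucan (with the wall protease YPS1), 3 chitin synthases and 6 genes that act when daughter and mother cells separate. They were chosen as a list of names and found by their NCBI Gene numbers in the R64 annotation. All 40 had a row in both deposited tables, of 5936 and 5931 rows, and none was listed at 0 in any library. The series measured polyadenylated RNA of strains in which essential genes were clustered, and short recoded sequence tags served to tell synthetic from wild-type transcripts. The first table holds GD (3 libraries), SD (3 libraries) and a wild-type library called control. The second holds RD (RD1, RD5 and RD6) and a wild-type library called ControlSYN3. The labels give the genotype of each group only as GD, SD, RD or wild-type, do not spell these letters out, and give no growth condition or treatment. Columns headed MD1, MD5 and MD6 were read as the RD libraries of the same number, an inference that the labels do not settle. All 40 genes passed the minimum of a mean of 1 FPKM (fragment counts scaled to transcript length and library size).

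The yeast wall is a mesh of beta-1,3-glucan, with a little chitin on the inside and a coat of mannoproteins on the outside. Glucan synthases spin glucan chains at the plasma membrane, and transferases of the Gas and Crh families then lengthen, branch and link the chains to chitin. Mannoproteins are tied to this mesh through a remnant of a glycosylphosphatidylinositol (GPI) anchor and beta-1,6-glucan, or, for the Pir proteins, directly to beta-1,3-glucan. When the wall is damaged, the Pkc1 and Slt2 kinase pathway of wall integrity acts through the transcription factors Rlm1 and SBF (Swi4 with Swi6). After division, glucanase and chitinase genes that part the daughter from the mother are switched on, many of them mainly in the daughter.

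Strain values below stand in the order of the library numbers. The depth of the libraries is unknown, since FPKM carry no read counts and low values did not resolve into whole fragments. Each wild-type library stands alone, so every test against it assumes that it varies like the strains, and a state of that single culture cannot be told apart from a difference of the strains. The labels do not say whether the libraries of a group came from separate cultures, so each p-value is set against a spread that may be technical. RD1 stood apart from RD5 and RD6 in its mating-type genes: the 7 markers of a-type cells summed to 5040.1 FPKM in RD1, against 45.7 and 45.2 FPKM in RD5 and RD6 and 81.5 FPKM in ControlSYN3. The RD results are therefore given with and without RD1. The strain groups also differed in markers of growth state. The 12 markers of stationary phase and starvation, none of them at 0, summed to 3755, 5891 and 2842 FPKM in GD, to 21926, 31759 and 31445 FPKM in SD and to 4603 FPKM in the control. Of these, 11 of 12 were called higher in SD than in the control, beside 10.4% of all genes, and 11 of 12 lower in GD than in SD, beside 20.4%. The 8 markers of M phase, none at 0, summed to 475, 484 and 563 FPKM in GD, to 189, 173 and 193 FPKM in SD and to 402 FPKM in the control. Here 7 of 8 were called higher in GD than in SD, beside 20.4% of all genes. These lists moved with many of the wall genes below, and their part in those results was not tested.

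The 40 wall genes took up a larger share of the summed FPKM in every strain library than in the wild-type library of its table. The share was 6.48, 6.30 and 5.84% in GD, 4.57, 4.81 and 5.24% in SD and 3.13% in the control. In the second table it was 7.75, 7.10 and 6.90% in RD and 5.48% in ControlSYN3. A few mannoproteins made up most of it. CCW12, the structural mannoprotein of the outer wall, alone gave 27.2 to 42.9% of the members' sum over the 11 libraries, and CCW12, CWP2 and SED1 together gave 56.8 to 74.0%. By level CCW12 was first or second among all genes of every library. Among the low members were GAS4 and CRR1, which act in spore wall assembly, at 5.95 to 26.1 FPKM and 11.4 to 43.2 FPKM. The lowest member was GAS3 in SD, at 5.79 to 6.76 FPKM, and DSE4 in the control, at 19.0 FPKM. The median percentile of the 40 genes among all rows of a library was 86.6, 92.5 and 84.1 in GD, 78.1, 79.8 and 81.8 in SD and 74.9 in the control.

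**Figure D1:**
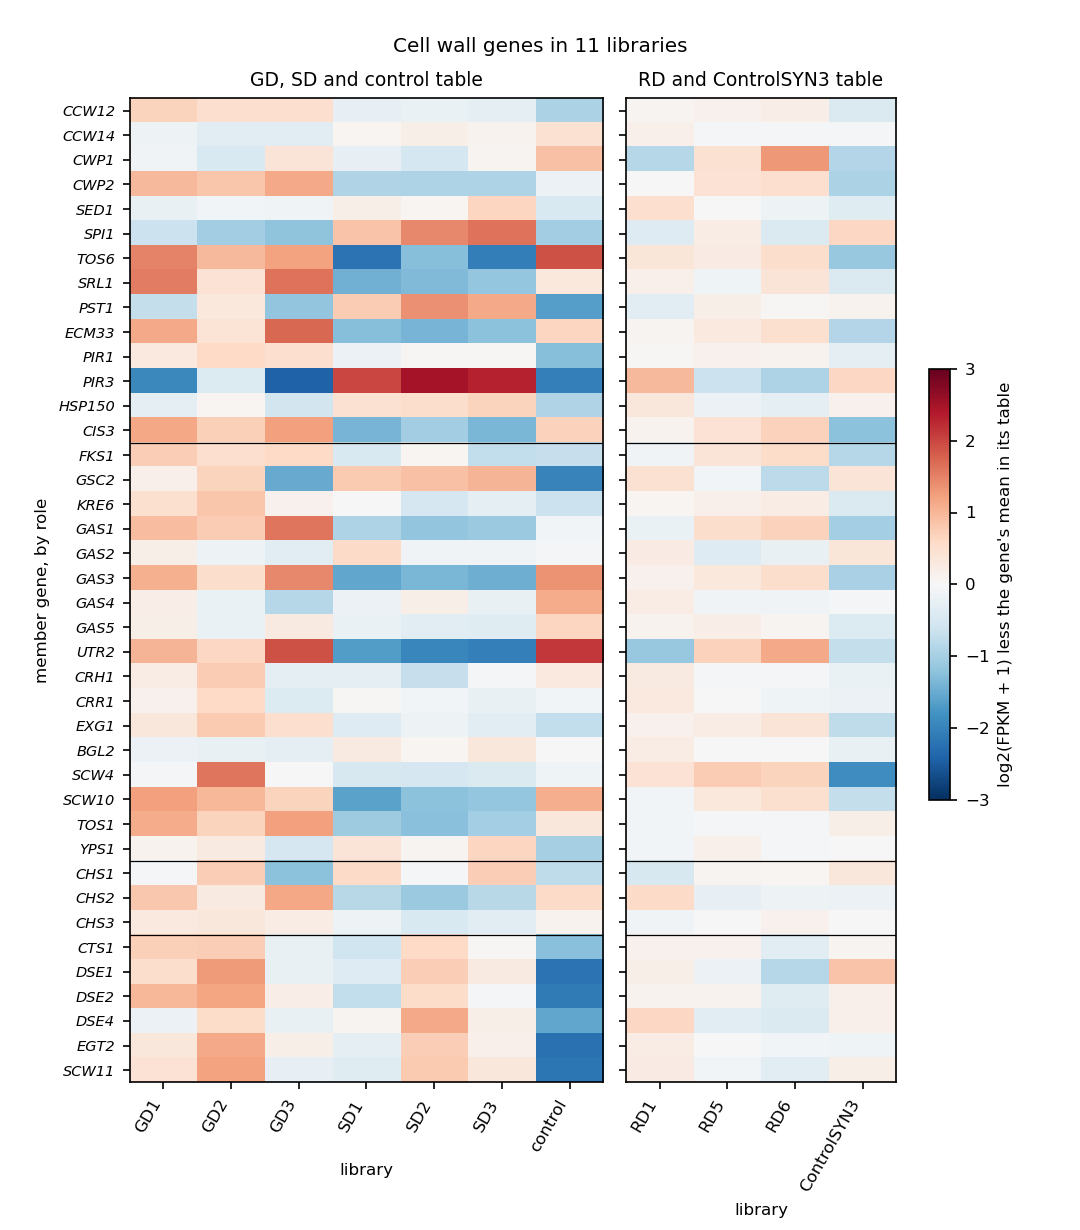
Level of each of the 40 genes in each library, as log2(FPKM + 1) less the gene's mean over the libraries of its table, on a colour scale from -3 (blue) to 3 (red). Black lines part wall proteins, glucan genes, chitin synthases and separation genes, from top to bottom. PIR3 is red in the 3 SD libraries, and the 6 separation genes have their lowest level of the first table in the control.

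Between GD and SD, which have 3 libraries each, 16 of the 40 genes were higher in GD and 4 lower, at a limma p adjusted over all genes below 0.05. Of all 5899 genes tested, 20.4% were called higher and 20.4% lower, so 40% and 10% of the members stand beside these figures. Every GD library lay above every SD library in 18 genes (45%, against 27.9% of all genes) and below in 8 (20%, against 28.5%). The median log2 fold change of the members was 0.44, beside -0.04 over all genes. Against the control, 12 of the 40 were higher in GD and 1 lower, beside 4.98% and 27.1% of all genes. SD had 12 higher and 12 lower, beside 10.4% and 31.4% of all genes. All genes together were shifted against the control: their median was -0.44 in GD and -0.37 in SD, while that of the members was 0.62 and 0.19. Every GD library lay above the control in 23 members (16.2% of all genes) and below it in 7 (59.6%), and every SD library in 19 (28.4%) and 18 (60.5%). With median-of-ratios scaling, which takes that shift off, 15 members were higher and none lower in GD (9.32% and 8.98% of all genes) and 13 higher and 6 lower in SD (18.7% and 17.5%). All comparisons with the control share that single library, so their values are set side by side and not counted as separate support.

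**Figure D2:**
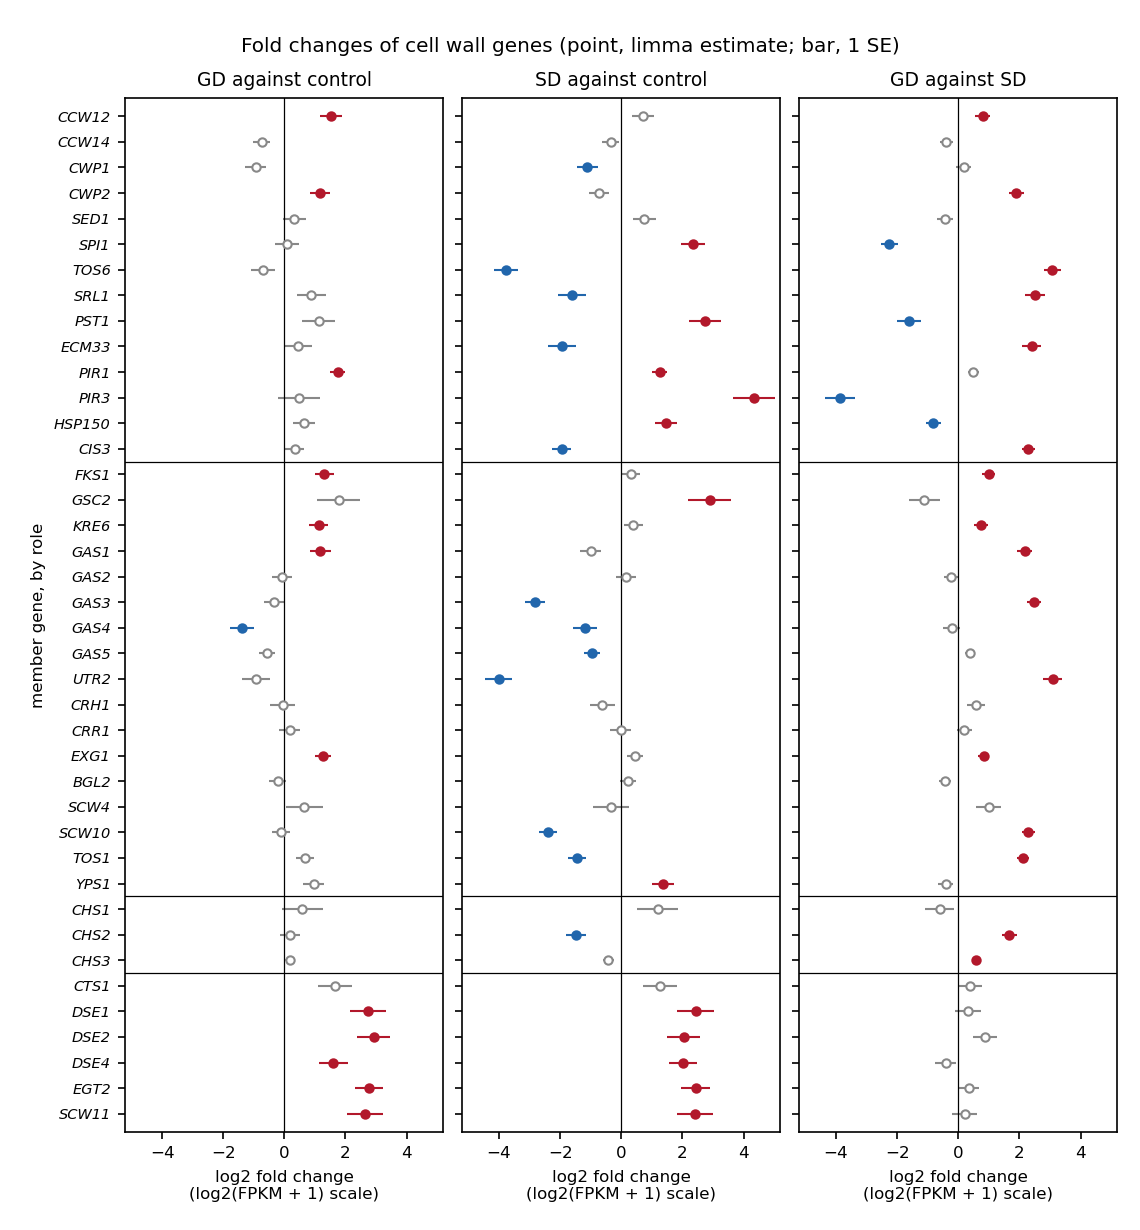
Log2 fold change of each gene on the log2(FPKM + 1) scale for GD against control, SD against control and GD against SD. Points are limma estimates and bars 1 SE; red points were called higher, blue lower, and open grey points were not called. Of the 6 separation genes 5 are red in both comparisons with the control and all 6 are open between GD and SD, where 16 other genes are red and 4 blue.

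Most separation genes were higher in GD and SD than in the control: 5 of the 6 in GD (median log2 fold change 2.68) and 5 in SD (2.23). Beside them, 4.98% of all genes were called higher in GD and 10.4% in SD, with medians of -0.44 and -0.37. None of the 6 was called between GD and SD, where 20.4% of all genes were called each way. Bulk RNA cannot tell fewer cells of a type, here cells that have just divided, from less RNA per cell. DSE2, a secreted protein of daughter cells that eases separation, had 759.7, 860.4 and 436 FPKM in GD, 227, 554 and 362 FPKM in SD and 86.0 FPKM in the control library. Its log2 fold change was 2.92 ± 0.54 (SE; adjusted p by limma = 0.00944) in GD and 2.04 ± 0.54 (SE; adjusted p = 0.0201) in SD against the control. Every strain library lay above the control, and the GD and SD libraries overlapped. EGT2, a GPI-anchored wall protein of late cytokinesis, had 118, 206 and 105 FPKM in GD, 76.9, 157 and 105 FPKM in SD and 19.2 FPKM in the control library. DSE1, a daughter protein that influences wall metabolism, had 250.2, 423 and 149.8 FPKM in GD, 134, 294 and 210.5 FPKM in SD and 36.8 FPKM in the control library. SCW11, which resembles glucanases, had 234, 406 and 147 FPKM in GD, 135, 302 and 220.5 FPKM in SD and 38.1 FPKM in the control library. In all 3 the strain libraries lay above the control, and the log2 fold changes of GD and SD against it were 2.77 and 2.44 for EGT2, 2.74 and 2.43 for DSE1 and 2.63 and 2.42 for SCW11, all called. DSE4, the daughter endo-beta-1,3-glucanase, had 51.0, 85.8 and 49.3 FPKM in GD, 61.2, 129 and 65.9 FPKM in SD and 19.0 FPKM in the control library, with log2 fold changes of 1.61 ± 0.47 (SE; adjusted p by limma = 0.0377) in GD and 2.02 ± 0.47 (SE; adjusted p = 0.0126) in SD. CTS1, the endochitinase that digests the septum, had 1419.5, 1434 and 734 FPKM in GD, 565, 1308 and 889 FPKM in SD and 360.4 FPKM in the control library. Its strain libraries also lay above the control, but it was not called in GD (1.66 ± 0.55, SE, adjusted p by limma = 0.053) or in SD (1.27 ± 0.55, SE, adjusted p = 0.0999). With median-of-ratios scaling CTS1 was called in GD (log2 fold change 2.08, adjusted p by limma = 0.0402), which makes 6 of 6 separation genes, and not in SD (adjusted p = 0.0509).

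The control was the lowest of its 7 libraries in all 6 separation genes, and in 15 of the 40 members, while 10.5% of all genes had their lowest value there. In the second table the wild-type library was not low. DSE1 had 294, 229 and 142 FPKM in RD and 472 FPKM in ControlSYN3, and CTS1 had 1418, 1420.2 and 1018 FPKM in RD and 1384 FPKM in ControlSYN3. ControlSYN3 lay above every RD library in DSE1 and DSE2 and below every RD library in EGT2. Levels of the tables were scaled apart and are not compared by a test. Of 8 markers of the M to G1 transition, 5 were higher and 1 lower in GD than in the control, beside 4.98% and 27.1% of all genes. In SD 4 were higher and 1 lower, beside 10.4% and 31.4%. Among the higher ones in both were EGT2 and PIR1, which are members themselves, and ASH1, one of the separation regulators below. The list thus partly repeats these results, and the part of the markers in the separation genes was not tested. Within the strain groups the 6 genes had the same highest and lowest libraries: GD2 was the highest and GD3 the lowest GD library in 6 of 6, SD2 the highest and SD1 the lowest SD library in 6 of 6, and RD6 the lowest RD library in 6 of 6. The highest GD library exceeded the lowest by 1.96-fold in the median of the 6 genes, and the highest SD library the lowest by 2.21-fold. Several of these calls depended on single libraries or on the groups in the fit. In GD against the control, those of DSE2 and EGT2 held in all 11 alternatives. The call of DSE1 was lost in the fit of those groups alone (adjusted p by limma = 0.0504), that of SCW11 in the fit of those groups alone (adjusted p = 0.0518), and that of DSE4 in the fit of those groups alone (adjusted p = 0.0586) and without GD1 or SD3 (adjusted p = 0.0579 to 0.0641). In SD, that of DSE2 was lost without SD3 (adjusted p by limma = 0.0525), and the other 4 held.

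**Figure D3:**
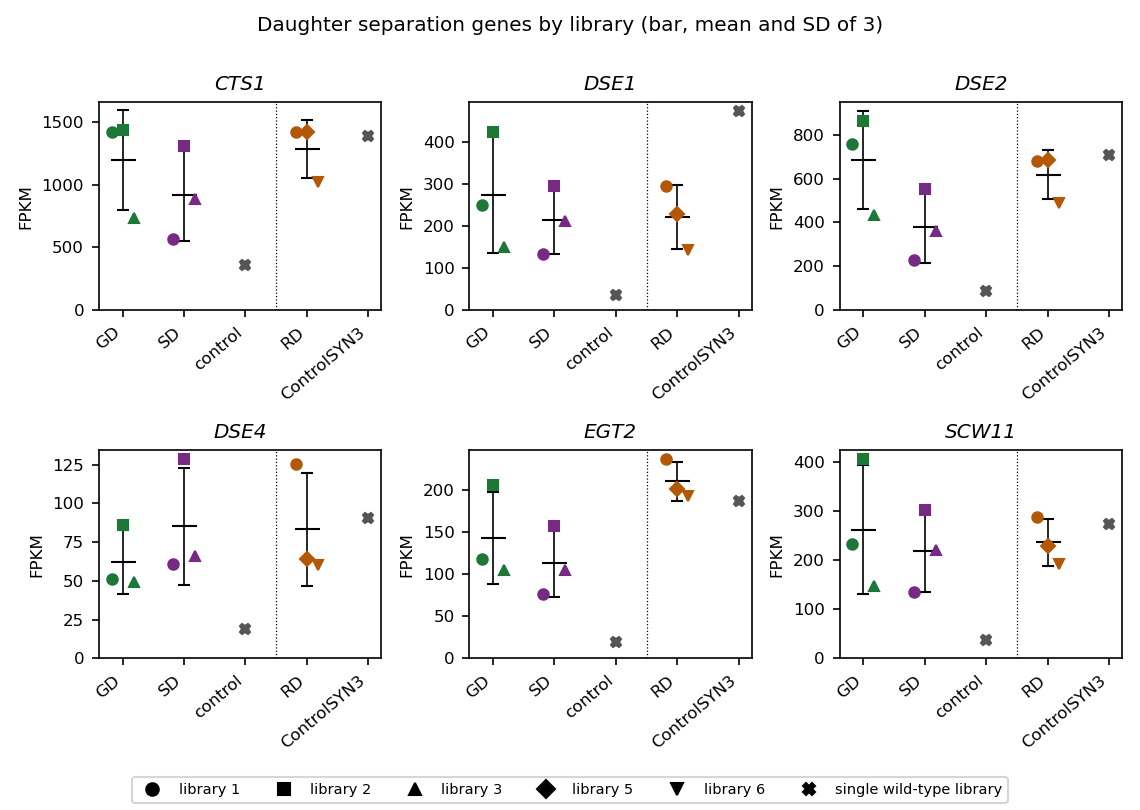
FPKM of the 6 separation genes in every library, by group; symbols give the library number, crosses the single wild-type libraries, and bars the mean and SD of 3 libraries. The dotted line parts the 2 tables, whose levels were scaled separately. The control is the lowest of its table in each panel, while ControlSYN3 lies within or above the RD libraries in all panels but EGT2.

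The regulators differed among themselves. SWI5, a transcription factor of the M to G1 transition, had 48.2, 44.4 and 58.5 FPKM in GD, 16.6, 14.1 and 16.1 FPKM in SD and 41.6 FPKM in the control library. SWI5 was lower in SD than in the control (-1.36 ± 0.21, SE, adjusted p by limma = 0.0028) and higher in GD than in SD (1.62 ± 0.15, SE, adjusted p = 0.000366), and it was not called in GD against the control (0.26 ± 0.21, SE, adjusted p = 0.354). SWI5 is also one of the M-phase markers. ASH1, a daughter-specific repressor that Swi5 switches on, was the gene of the 12 separation regulators called higher in GD (1.44 ± 0.45, SE, adjusted p by limma = 0.044), and in SD it was higher as well (1.64 ± 0.45, SE, adjusted p = 0.0219). It had 168, 241 and 105 FPKM in GD, 143, 212 and 214 FPKM in SD and 59.0 FPKM in the control library. MOB2, the partner of the kinase Cbk1 in daughter separation, had 92.4, 98.8 and 78.2 FPKM in GD, 75.3, 65.1 and 68.5 FPKM in SD and 207 FPKM in the control library. MOB2 was lower in GD (-1.20 ± 0.21, SE, adjusted p by limma = 0.0077) and in SD (-1.56 ± 0.21, SE, adjusted p = 0.00195). Against the control, 1 of these 12 genes was higher and 3 were lower in GD, and 2 were higher and 3 lower in SD. These are 8.33% and 25% in GD, beside 4.98% and 27.1% of all genes, and 16.7% and 25% in SD, beside 10.4% and 31.4%. With median-of-ratios scaling 1 was higher and 2 lower in GD, and 3 higher and 2 lower in SD. Between the strain groups, 2 were higher and 3 lower in GD, or 16.7% and 25%, beside 20.4% each way for all genes. Among the lower ones were SSD1, an RNA-binding repressor of wall protein translation (-1.07 ± 0.21, SE, adjusted p by limma = 0.00736), and SOG2, of the Cbk1 network (-0.74 ± 0.18, SE, adjusted p = 0.0138).

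Of the 14 wall proteins, 6 were higher and 4 lower in GD than in SD. These are 42.9% and 28.6%, beside 20.4% each way for all genes. CCW12 had 28971, 26189 and 25883 FPKM in GD, 15526, 15911 and 15229 FPKM in SD and 9454 FPKM in the control library. It was the most abundant member in every library and was higher in GD than in the control (1.51 ± 0.36, SE, adjusted p by limma = 0.0193) and than in SD (0.79 ± 0.25, SE, adjusted p = 0.0401), with no call for SD against the control (0.72 ± 0.36, SE, adjusted p = 0.144). CWP2, a major mannoprotein that also serves acid tolerance, had 12144, 11124 and 13689 FPKM in GD, 3297, 3279.8 and 3253 FPKM in SD and 5479.5 FPKM in the control library. The GD libraries lay above the control and the SD libraries below it, and the groups did not overlap. Its log2 fold change was 1.91 ± 0.23 (SE; adjusted p by limma = 0.00113) in GD against SD and 1.16 ± 0.33 (SE; adjusted p = 0.0347) in GD against the control. Its neighbour on chromosome XI, CWP1, another GPI-linked mannoprotein, stood far lower, at 33.3, 25.9 and 47.2 FPKM in GD, 30.2, 24.6 and 37.8 FPKM in SD and 66.8 FPKM in the control library. CWP1 was called lower in SD than in the control (-1.11 ± 0.34, SE, adjusted p by limma = 0.0357), and the GD and SD libraries overlapped. The call of CCW12 in GD against the control was lost in the fit of those groups alone (adjusted p by limma = 0.154) and without SD1 or SD3 (adjusted p = 0.0619 to 0.0634), and in GD against SD without GD1, SD1, SD2 or SD3 (adjusted p = 0.079 to 0.17). That of CWP2 against the control was lost in the fit of those groups alone (adjusted p by limma = 0.209) and without GD1, SD1, SD2 or SD3 (adjusted p = 0.0537 to 0.0928), while in GD against SD it held in all 12 alternatives. That of CWP1 was lost with median-of-ratios scaling (adjusted p by limma = 0.195) and without GD1, SD1 or SD2 (adjusted p = 0.0662 to 0.0807).

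Another 4 wall protein genes were low in SD beside both the control and GD. TOS6, a GPI wall protein, had 634, 439.7 and 516 FPKM in GD, 47.7, 92.0 and 52.6 FPKM in SD and 848 FPKM in the control library. All SD libraries lay far below the other 4, and the log2 fold change was -3.77 ± 0.39 (SE; adjusted p by limma = 0.000968) in SD against the control and 3.07 ± 0.28 (SE; adjusted p = 0.000366) in GD against SD. SRL1, a mannoprotein that helps keep the wall stable, had 1256, 587 and 1340.2 FPKM in GD, 159, 173 and 194 FPKM in SD and 538 FPKM in the control library, and ECM33, a GPI protein needed for wall integrity, had 961, 585 and 1462 FPKM in GD, 179, 166 and 186 FPKM in SD and 683 FPKM in the control library. In both genes GD2 was the lowest GD library and all GD libraries lay above all SD libraries (2.50 ± 0.33, SE, adjusted p by limma = 0.00141 for SRL1 and 2.40 ± 0.32, SE, adjusted p = 0.00158 for ECM33). CIS3, a Pir protein, had 1377, 1010.2 and 1447 FPKM in GD, 236, 301 and 237 FPKM in SD and 997 FPKM in the control library. For CIS3 the log2 fold change was -1.96 ± 0.31 (SE; adjusted p by limma = 0.00321) in SD against the control and 2.30 ± 0.22 (SE; adjusted p = 0.000444) in GD against SD. None of these 4 was called in GD against the control. The calls of TOS6 and CIS3 in SD against the control held in all 11 alternatives. That of ECM33 was lost with median-of-ratios scaling (adjusted p by limma = 0.0582), and that of SRL1 with median-of-ratios scaling (adjusted p = 0.111) and without SD1, SD2 or SD3 (adjusted p = 0.057 to 0.0675).

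The opposite pattern, high in SD, was seen in 4 other wall protein genes. SPI1, a small GPI protein induced by weak acids and in stationary phase, had 803, 609.8 and 545 FPKM in GD, 2261, 3388 and 3856 FPKM in SD and 612 FPKM in the control library. GD against the control was not called (0.07 ± 0.39, SE, adjusted p by limma = 0.899), while SD was higher than the control (2.33 ± 0.39, SE, adjusted p = 0.00385) and GD lower than SD (-2.26 ± 0.28, SE, adjusted p = 0.00114). PST1, a paralog of ECM33 that is known to be induced by wall damage, had 255, 521 and 186 FPKM in GD, 709.7, 1084 and 926 FPKM in SD and 133 FPKM in the control library. SD exceeded the control (2.74 ± 0.54, SE, adjusted p by limma = 0.00665). Its paralog moved the other way in the same libraries: in GD against SD the log2 fold change was -1.61 ± 0.38 (SE; adjusted p by limma = 0.0133) for PST1 and 2.40 for ECM33. PIR3, a Pir protein, showed the largest fold change of the members, with 116, 336 and 81.3 FPKM in GD, 1778, 2529 and 2218 FPKM in SD and 106 FPKM in the control library. The lowest SD library had 1778 FPKM while no GD or control library exceeded 336 FPKM. The log2 fold change was 4.34 ± 0.69 (SE; adjusted p by limma = 0.00342) in SD against the control and -3.86 ± 0.49 (SE; adjusted p = 0.00137) in GD against SD. HSP150, the most abundant Pir gene, had 3392, 4255 and 2782 FPKM in GD, 5636, 5928 and 6506 FPKM in SD and 2181 FPKM in the control library. HSP150 was higher in SD than in the control (1.46 ± 0.36, SE, adjusted p by limma = 0.0152) and lower in GD than in SD (-0.81 ± 0.25, SE, adjusted p = 0.0378). SPI1 and PIR3 kept both calls in all alternatives. PST1 lost its call in GD against SD without GD1 or SD3 (adjusted p by limma = 0.0523 to 0.0541), and HSP150 without GD1, GD3, SD1, SD2 or SD3 (adjusted p = 0.0653 to 0.152) and, in SD against the control, without SD3 (adjusted p = 0.0608).

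PIR1, the remaining Pir gene, had 508, 631 and 594 FPKM in GD, 372, 425 and 429 FPKM in SD and 171 FPKM in the control library. It was higher than the control in GD (1.75 ± 0.25, SE, adjusted p by limma = 0.00505) and in SD (1.25 ± 0.25, SE, adjusted p = 0.0071), and GD was above SD without reaching the threshold (0.49 ± 0.18, SE, adjusted p = 0.0578). Its GD call was lost in the fit of those groups alone (adjusted p by limma = 0.0504). PIR1 and PIR3 start back to back on chromosome XI (PIR1 141794 to 142819 on the minus strand, PIR3 144401 to 145378 on the plus strand, build R64), and HSP150 and CIS3 end towards each other on chromosome X (120449 to 121690 and 122265 to 122948). Within a library the FPKM ratio of PIR3 to PIR1 was 0.229, 0.532 and 0.137 in GD, 4.78, 5.96 and 5.17 in SD and 0.619 in the control. The ratio of HSP150 to CIS3 was 2.46, 4.21 and 1.92 in GD, 23.9, 19.7 and 27.4 in SD and 2.19 in the control. Both ratios set the SD libraries apart from all others of the table, and a ratio within a library does not depend on how the library was scaled. The Pir genes share sequence: 6.14% of the 50-base stretches of PIR1, 6.46% of PIR3, 1.34% of HSP150 and 2.52% of CIS3 occur elsewhere in the genome, so a small share of their reads may be split between them. No other member had such a stretch. CCW14 and SED1, which are GPI mannoproteins, were not called in any comparison. CCW14 had 1512, 1335 and 1334 FPKM in GD, 1738, 1912 and 1815 FPKM in SD and 2317 FPKM in the control library, and SED1, a gene of stationary-phase walls, had 7699, 8539.8 and 8456 FPKM in GD, 10282, 9408 and 14058 FPKM in SD and 6567 FPKM in the control library.

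**Figure D4:**
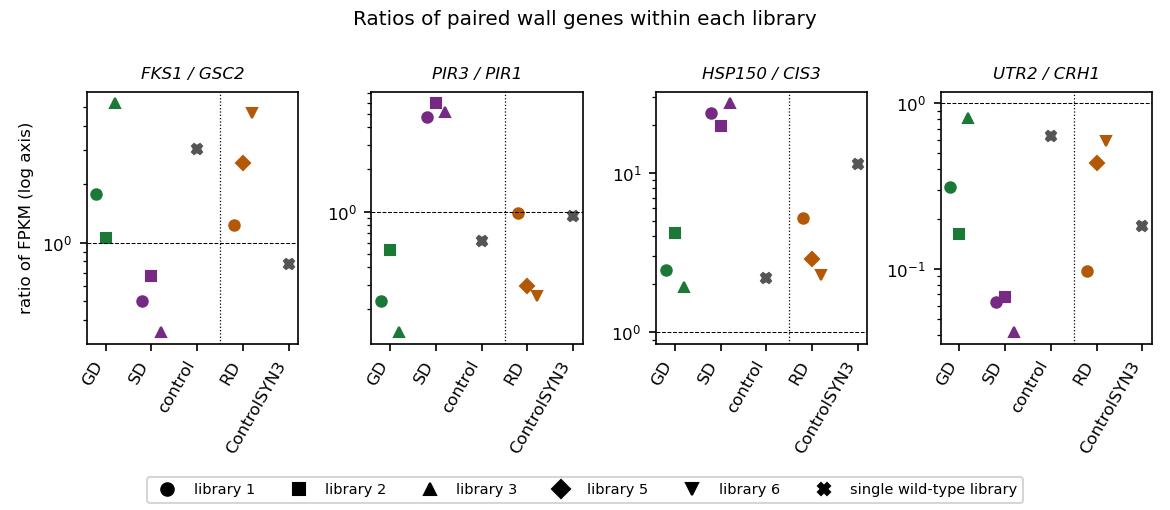
Ratio of FPKM of FKS1 to GSC2, PIR3 to PIR1, HSP150 to CIS3 and UTR2 to CRH1 within each library, on a log axis; symbols give the library number and crosses the single wild-type libraries. The dashed line marks equal levels where it is in range, and the dotted line parts the 2 tables. For FKS1 to GSC2 the SD libraries lie at 0.345 to 0.674 and all GD libraries above 1.

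FKS1 and GSC2 encode alternative catalytic subunits of beta-1,3-glucan synthase: FKS1 serves growing cells, and GSC2 is known to be induced by starvation, mating pheromone and wall stress. FKS1 had 191, 163 and 174 FPKM in GD, 83.2, 119 and 67.9 FPKM in SD and 70.5 FPKM in the control library. GSC2 had 107, 154 and 33.3 FPKM in GD, 166, 177 and 197 FPKM in SD and 23.3 FPKM in the control library. FKS1 was higher in GD than in the control (1.30 ± 0.31, SE, adjusted p by limma = 0.0192) and than in SD (0.99 ± 0.22, SE, adjusted p = 0.0106), whereas GSC2 was higher in SD than in the control (2.89 ± 0.71, SE, adjusted p = 0.0156). GSC2 ranged widely in GD, where GD2 was close to SD and GD3 close to the control, and it was not called in GD against SD (-1.12 ± 0.50, SE, adjusted p by limma = 0.114). The ratio of FKS1 to GSC2 was 1.78, 1.06 and 5.22 in GD, 0.502, 0.674 and 0.345 in SD and 3.03 in the control, so GSC2 exceeded FKS1 in the 3 SD libraries and not in the other 4. The genes have coding lengths of 5631 and 5688 bases and share no 50-base stretch. KRE6, needed for beta-1,6-glucan, had 153, 193 and 119 FPKM in GD, 108, 76.6 and 88.9 FPKM in SD and 68.9 FPKM in the control library. KRE6 was higher in GD than in the control (1.13 ± 0.31, SE, adjusted p by limma = 0.0305) and than in SD (0.74 ± 0.22, SE, adjusted p = 0.03). The call of FKS1 against the control was lost in the fit of those groups alone (adjusted p by limma = 0.0577) and without GD1 (adjusted p = 0.0512). KRE6 lost its call against the control in the fit of those groups alone (adjusted p by limma = 0.1) and without GD1 or SD3 (adjusted p = 0.062 to 0.0697), and against SD without GD1, SD2 or SD3 (adjusted p = 0.0842 to 0.104).

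The Gas proteins are glucanosyltransferases that lengthen beta-1,3-glucan. GAS1, the main enzyme of vegetative cells, had 530.5, 468 and 849 FPKM in GD, 145, 121 and 128 FPKM in SD and 262 FPKM in the control library. The GD libraries were all above the control and the SD libraries all below it, and GD exceeded SD (2.18 ± 0.24, SE, adjusted p by limma = 0.000809). GAS3, a member of the family with little known activity, had 41.0, 28.1 and 53.5 FPKM in GD, 5.79, 6.76 and 6.26 FPKM in SD and 50.1 FPKM in the control library. For GAS3 the log2 fold change was -2.82 ± 0.33 (SE; adjusted p by limma = 0.00144) in SD against the control and 2.48 ± 0.23 (SE; adjusted p = 0.000399) in GD against SD. GAS5, of vegetative cells, had 246, 188 and 262 FPKM in GD, 189, 171 and 168 FPKM in SD and 342 FPKM in the control library. GAS5 was called lower in SD than in the control (-0.96 ± 0.25, SE, adjusted p by limma = 0.0197). GAS2 and GAS4 act in spore wall assembly. GAS4 had 13.5, 9.92 and 5.95 FPKM in GD, 10.2, 13.3 and 9.78 FPKM in SD and 26.1 FPKM in the control library. GAS4 was lower than the control in GD (-1.39 ± 0.40, SE, adjusted p by limma = 0.0349) and in SD (-1.18 ± 0.40, SE, adjusted p = 0.0474), but in neither with median-of-ratios scaling (adjusted p = 0.0964 and 0.119). Among 15 sporulation markers, 7 were also lower in GD and 7 in SD than in the control, beside 27.1% and 31.4% of all genes. GAS2 had 42.2, 33.4 and 29.4 FPKM in GD, 56.3, 34.8 and 34.5 FPKM in SD and 36.6 FPKM in the control library. GAS2 was not called in these libraries. The call of GAS1 in GD against the control (1.18 ± 0.35, SE, adjusted p by limma = 0.0379) was lost in the fit of those groups alone (adjusted p = 0.138) and without GD1, SD1, SD2 or SD3 (adjusted p = 0.0625 to 0.0754). That of GAS4 was also lost, in GD, in the fit of those groups alone (adjusted p by limma = 0.108) and without SD1, SD2 or SD3 (adjusted p = 0.0506 to 0.0633), and in SD with a pseudocount of 0.1 (adjusted p = 0.0546) and without SD1, SD2 or SD3 (adjusted p = 0.0592 to 0.115), and that of GAS5 with median-of-ratios scaling (adjusted p = 0.166) and without SD2 or SD3 (adjusted p = 0.0529 to 0.0662).

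UTR2, CRH1 and CRR1 encode transglycosylases that link chitin to glucan, CRR1 in the spore wall. UTR2 had 91.3, 69.8 and 172 FPKM in GD, 13.3, 10.7 and 10.1 FPKM in SD and 197 FPKM in the control library. It had the lowest log2 fold change of the members in SD against the control, -4.01 ± 0.44 (SE; adjusted p by limma = 0.00134), and one of 3.08 ± 0.31 (SE; adjusted p = 0.000597) in GD against SD, both in all alternatives. CRH1 had 294, 432 and 211 FPKM in GD, 212, 158 and 243 FPKM in SD and 309 FPKM in the control library, with GD and SD overlapping, and CRR1 had 30.8, 43.2 and 21.1 FPKM in GD, 29.0, 26.5 and 24.1 FPKM in SD and 26.7 FPKM in the control library. Neither was called in any comparison. The ratio of UTR2 to CRH1 was 0.311, 0.162 and 0.815 in GD, 0.0630, 0.0679 and 0.0414 in SD and 0.637 in the control.

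The secreted glucanases split in the same libraries. SCW10, a soluble wall protein that resembles glucanases, had 651, 555 and 446 FPKM in GD, 91.2, 118 and 125 FPKM in SD and 589 FPKM in the control library. SCW10 was lower in SD than in the control (-2.40 ± 0.30, SE, adjusted p by limma = 0.00167) and higher in GD than in SD (2.29 ± 0.21, SE, adjusted p = 0.000373). Its relative SCW4 had 157, 489 and 160.0 FPKM in GD, 114, 113 and 119 FPKM in SD and 146 FPKM in the control library. GD2 stood above all other libraries of the table, and SCW4 was not called in any of its 3 comparisons. TOS1, a wall protein of unknown function, had 741, 539.7 and 808 FPKM in GD, 162, 143 and 167 FPKM in SD and 429 FPKM in the control library. TOS1 was lower in SD than in the control (-1.45 ± 0.29, SE, adjusted p by limma = 0.00702) and higher in GD than in SD (2.12 ± 0.20, SE, adjusted p = 0.000437). EXG1, the main exo-beta-1,3-glucanase, had 385, 524 and 436 FPKM in GD, 233, 276 and 242 FPKM in SD and 184 FPKM in the control library. EXG1 was higher in GD than in the control (1.27 ± 0.26, SE, adjusted p by limma = 0.012) and than in SD (0.83 ± 0.18, SE, adjusted p = 0.0104). BGL2, an abundant beta-1,3-glucan transferase of the wall, had 882, 863 and 828 FPKM in GD, 1213, 1037 and 1254 FPKM in SD and 998 FPKM in the control library. BGL2 was not called. YPS1, a GPI-anchored aspartic protease that sheds wall proteins, had 220.3, 244 and 144 FPKM in GD, 267, 216 and 316 FPKM in SD and 101 FPKM in the control library. YPS1 was higher in SD than in the control (1.37 ± 0.35, SE, adjusted p by limma = 0.017). The call of EXG1 against the control was lost in the fit of those groups alone (adjusted p by limma = 0.0798) and against SD without SD3 (adjusted p = 0.0538), and that of YPS1 without SD3 (adjusted p = 0.0522). Median-of-ratios scaling added calls of YPS1 in GD against the control (adjusted p by limma = 0.0264) and of EXG1 in SD against the control (adjusted p = 0.0464). In all, 8 of the 17 glucan genes (47.1%) were higher and none lower in GD than in SD. Among all genes 20.4% were called each way. GSC2, GAS2, GAS4, BGL2 and YPS1 were among the 9 not called.

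All 3 chitin synthases had low levels beside the abundant wall proteins, and 2 of them were higher in GD than in SD. Among all genes 20.4% were called higher there. CHS2, which builds the primary septum during mitosis, had 44.0, 29.8 and 56.4 FPKM in GD, 13.4, 10.8 and 13.3 FPKM in SD and 37.0 FPKM in the control library. It was lower in SD than in the control (-1.50 ± 0.33, SE, adjusted p by limma = 0.00999) and higher in GD than in SD (1.68 ± 0.23, SE, adjusted p = 0.00176). The M-phase markers stood beside it, with 6 of 8 lower in SD than in the control, against 31.4% of all genes. CHS3, which makes most of the chitin of the lateral wall and the bud neck ring, had 54.5, 56.6 and 52.1 FPKM in GD, 40.2, 31.9 and 35.2 FPKM in SD and 48.1 FPKM in the control library. CHS3 was higher in GD than in SD (0.60 ± 0.13, SE, adjusted p by limma = 0.0105). CHS1, a repair enzyme of the septum, had 133, 229 and 57.5 FPKM in GD, 204, 134 and 227 FPKM in SD and 79.8 FPKM in the control library. Its GD libraries ran from below the control to above every SD library, and it was not called. The CHS2 call in SD against the control was lost with median-of-ratios scaling (adjusted p by limma = 0.0599), and that of CHS3 in GD against SD without SD3 (adjusted p = 0.0535). With the scaling CHS3 was called higher in GD than in the control (log2 fold change 0.58, adjusted p by limma = 0.044).

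The upstream 500 bases before the start codons of all 40 genes (build R64) were searched on both strands for 3 motifs. CGCGAAA, the letters of the Swi4 box that SBF reads, was found in 5.82% of 6000 coding genes and in 10 of the 40 members. It stood before 8 of the 16 genes that were higher in GD than in SD, before none of the 4 that were lower and before 2 of the 20 not called. The letters CTA and TAG with 4 free bases between them, which resemble sites of Rlm1, were found in 9.27% of coding genes and in 11 members: before none of the 16 higher genes, 3 of the 4 lower genes and 8 of the 20 not called. AGGGG, the stress response element read by Msn2 and Msn4, was found in 34.1% of coding genes and in 11 members: before 3 of the 16 higher genes, 3 of the 4 lower genes and 5 of the 20 not called. None of the motifs contains another. The sets were formed from the fold changes, so these counts describe them and carry no test. The 8 higher genes with the Swi4 letters are CCW12, CWP2, TOS6, GAS1, GAS3, UTR2, SCW10 and TOS1, and those not called are CWP1 and SCW4. In CCW12 and CWP2 the stretch around the match overlaps another annotated coding gene. The other 6 are shown with 60 bases each, since they hold several of the largest GD to SD differences; they run 5′ to 3′ in the direction of the gene in build R64, with the Swi4 letters or their reverse complement in capitals.
TOS6, chrXIV:65317-65376, plus strand: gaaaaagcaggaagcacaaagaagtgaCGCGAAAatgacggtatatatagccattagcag
GAS1, chrXIII:886619-886678, plus strand: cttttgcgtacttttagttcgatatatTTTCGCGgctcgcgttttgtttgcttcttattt
GAS3, chrXIII:696597-696656, plus strand: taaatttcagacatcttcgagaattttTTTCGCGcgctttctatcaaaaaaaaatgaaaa
UTR2, chrV:77789-77848, plus strand: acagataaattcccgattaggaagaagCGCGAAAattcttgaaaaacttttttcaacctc
SCW10, chrXIII:880602-880661, minus strand: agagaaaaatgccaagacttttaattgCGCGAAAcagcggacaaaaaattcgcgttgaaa
TOS1, chrII:565011-565070, minus strand: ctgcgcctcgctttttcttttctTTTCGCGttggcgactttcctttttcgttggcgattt
The genes with the Rlm1 letters that were lower in GD than in SD are shown in the same way, with those letters in capitals. HSP150 held another match, at -223 relative to its start codon, which lies outside the stretch shown.
PST1, chrIV:563197-563256, plus strand: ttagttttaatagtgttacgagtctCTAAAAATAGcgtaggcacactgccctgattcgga
PIR3, chrXI:144096-144155, plus strand: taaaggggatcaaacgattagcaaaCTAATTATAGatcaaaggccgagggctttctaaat
HSP150, chrX:120389-120448, plus strand: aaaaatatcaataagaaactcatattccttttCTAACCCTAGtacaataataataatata
The 6 genes of the first set had log2 fold changes of 2.12 (TOS1) to 3.08 (UTR2) in GD against SD, and the 3 of the second had -3.86 (PIR3) to -0.81 (HSP150). The other genes with the Swi4 letters had smaller ones: 0.79 in CCW12, 1.91 in CWP2, 0.18 in CWP1 and 0.99 in SCW4. Higher genes without the Swi4 letters also reached that range, with 2.50 in SRL1, 2.40 in ECM33 and 2.30 in CIS3. The rest without them, CHS2, FKS1, EXG1, KRE6 and CHS3, had 0.60 to 1.68. SPI1, the other gene lower in GD, held no Rlm1 letters and AGGGG 3 times.

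Transcripts of SWI4 and RLM1, taken up because of these motifs, were measured too, while those of Msn2 and Msn4 were not taken up. SWI4 had 23.9, 14.4 and 20.7 FPKM in GD, 14.9, 16.7 and 13.1 FPKM in SD and 44.3 FPKM in the control library, with GD2 within the range of SD. SWI4 was lower than the control in GD (-1.16 ± 0.29, SE, adjusted p by limma = 0.0223) and in SD (-1.51 ± 0.29, SE, adjusted p = 0.00602), the first not with median-of-ratios scaling (adjusted p = 0.138). RLM1 had 88.2, 118 and 59.9 FPKM in GD, 144, 160.3 and 156 FPKM in SD and 121 FPKM in the control library, with GD lower than SD (-0.83 ± 0.24, SE, adjusted p by limma = 0.029). SLT2, the kinase of the wall integrity pathway, had 136, 329 and 71.0 FPKM in GD, 312, 256 and 286 FPKM in SD and 151 FPKM in the control library. SLT2 was not called; GD2 was the highest of the 7 libraries and GD3 the lowest. Of 21 genes of wall integrity signalling, none was higher and 4 were lower in GD than in the control, and the counts were 0 and 4 in SD, beside 27.1% and 31.4% of all genes called lower. With median-of-ratios scaling 1 was higher and 1 lower in GD, and 3 were higher and 3 lower in SD. Between the strain groups 4 were higher and 4 lower in GD, or 19% each way, beside 20.4% each way for all genes. WSC4, of a family of wall sensors, and SMI1, a regulator of glucan synthesis, led the higher ones (1.94 ± 0.30, SE, adjusted p by limma = 0.00277 for WSC4 and 1.13 ± 0.18, SE, adjusted p = 0.0032 for SMI1). SDP1, a phosphatase that acts on Slt2, and ROM1, an exchange factor for Rho1, led the lower ones (-2.24 ± 0.37, SE, adjusted p by limma = 0.00366 for SDP1 and -1.48 ± 0.12, SE, adjusted p = 0.000311 for ROM1).

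Other wall genes outside the 40 gave mixed counts. Of 23 further mannoproteins and yapsins, 1 was higher and 4 were lower in GD than in the control, 1 higher and 7 lower in SD than in the control, and 5 higher and 5 lower in GD than in SD. These are 4.35% and 17.4%, 4.35% and 30.4%, and 21.7% each way of the list. All genes had 4.98% and 27.1%, 10.4% and 31.4%, and 20.4% each way, so the list lay near or below them. With median-of-ratios scaling the counts against the control were 2 higher and 3 lower in GD and 6 higher and 6 lower in SD. FIT3, a mannoprotein induced by low iron that helps hold iron siderophores in the wall, had 376, 170.1 and 131 FPKM in GD, 149.9, 526 and 149 FPKM in SD and 20316 FPKM in the control library. The control exceeded every strain library by more than any member did, and the log2 fold change was -6.64 ± 0.82 (SE; adjusted p by limma = 0.00406) in GD and -6.47 ± 0.82 (SE; adjusted p = 0.00187) in SD. In the control library FIT3 stood above CCW12, whereas in the strain libraries it was far below it. ZPS1, a wall protein induced by low zinc, had 1005, 827 and 308 FPKM in GD, 126, 123 and 51.3 FPKM in SD and 55.2 FPKM in the control library. ZPS1 was higher in GD than in the control (3.50 ± 0.73, SE, adjusted p by limma = 0.0137) and than in SD (2.76 ± 0.52, SE, adjusted p = 0.00612). TIR1, a mannoprotein of cold and low-oxygen growth, had 11.4, 14.4 and 16.6 FPKM in GD, 12.8, 6.51 and 9.07 FPKM in SD and 72.3 FPKM in the control library. TIR1 was lower in GD (-2.29 ± 0.35, SE, adjusted p by limma = 0.00587) and SD (-2.85 ± 0.35, SE, adjusted p = 0.00167). YPS6, a yapsin, and FLO10, a flocculin, were lower in GD than in SD (-1.68 ± 0.22, SE, adjusted p by limma = 0.00135 for YPS6 and -1.11 ± 0.16, SE, adjusted p = 0.00194 for FLO10).

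Of 20 further glucan genes, 3 were higher and 5 lower in GD than in the control, 3 higher and 7 lower in SD than in the control, and 4 higher and 2 lower in GD than in SD. These are 15% and 25%, 15% and 35%, and 20% and 10% of the list. All genes had 4.98% and 27.1%, 10.4% and 31.4%, and 20.4% each way. With median-of-ratios scaling 4 were higher and 0 lower in GD than in the control, beside 9.32% and 8.98% of all genes. In SD 6 were higher and 2 lower than in the control, beside 18.7% and 17.5%. Between the strain groups the scaling gave 6 higher and 3 lower in GD. CWH41, a glucosidase of the endoplasmic reticulum that affects beta-1,6-glucan, had 67.0, 68.9 and 52.5 FPKM in GD, 40.8, 35.3 and 41.3 FPKM in SD and 16.0 FPKM in the control library. CWH41 was higher in GD (1.90 ± 0.21, SE, adjusted p by limma = 0.00336) and SD (1.23 ± 0.21, SE, adjusted p = 0.00406). SKN1, the paralog of KRE6, had 94.9, 96.4 and 77.8 FPKM in GD, 110.0, 117 and 125 FPKM in SD and 34.5 FPKM in the control library, and it too was higher in GD (1.35 ± 0.20, SE, adjusted p by limma = 0.00574) and SD (1.73 ± 0.20, SE, adjusted p = 0.00151). RHO2, a small GTPase gene of polarity and wall synthesis, had 76.7, 73.0 and 90.8 FPKM in GD, 34.8, 18.4 and 29.9 FPKM in SD and 184 FPKM in the control library. RHO2 was lower in both (-1.20 ± 0.33, SE, adjusted p by limma = 0.0311 in GD and -2.74 ± 0.33, SE, adjusted p = 0.00158 in SD), though in GD not with median-of-ratios scaling (adjusted p = 0.156). Genes of the SUN family stood at opposite ends of GD against SD, SIM1 above (1.87 ± 0.26, SE, adjusted p by limma = 0.00168) and NCA3 below (-1.78 ± 0.58, SE, adjusted p = 0.0448). Of 12 further chitin genes, none was higher and 2 were lower in GD than in the control, 0 and 3 in SD, and 3 were higher and 2 lower in GD than in SD. These are 0% and 16.7%, 0% and 25%, and 25% and 16.7% of the list, near or below the shares of all genes. With median-of-ratios scaling none was called in GD against the control, and 1 was higher and 3 lower in SD. GNA1 and QRI1, which make the chitin precursor UDP-N-acetylglucosamine, were lower than the control in SD (-1.81 ± 0.20, SE, adjusted p by limma = 0.00124 for GNA1 and -2.09 ± 0.31, SE, adjusted p = 0.00269 for QRI1) and higher in GD than in SD (0.95 ± 0.14, SE, adjusted p = 0.00231 and 0.98 ± 0.22, SE, adjusted p = 0.0118). SHC1, an activator of chitin synthase III in sporulation, was lower in GD than in SD (-1.86 ± 0.38, SE, adjusted p by limma = 0.00831).

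In RD against ControlSYN3 limma called none of the 40 members, and none of 5895 genes (0%). At an unadjusted p below 0.05 there were 10 members and 671 genes. The fit leaves 2 residual degrees of freedom, and the spread comes from RD alone, where RD1 differed from RD5 and RD6. Once RD1 is left out, the SE and adjusted p rest on the difference between RD5 and RD6 alone. Without RD1, with 1 residual degree of freedom, 14 members were higher and 4 lower, beside 22.9% and 33.2% of 5876 genes. Every RD library lay above ControlSYN3 in 21 members (52.5%, against 29% of all genes) and below it in 6 (15%, against 41.2%). The median log2 fold change of the members was 0.26 with all RD libraries, and 0.40, 0.18 and 0.15 in RD1, RD5 and RD6, while the medians of all genes in those libraries were -0.04, -0.12 and -0.13.

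The genes above ControlSYN3 in all 3 RD libraries were mostly wall proteins (9 of 14) and glucan genes (11 of 17). SCW4 had 697, 869 and 814 FPKM in RD and 141 FPKM in ControlSYN3. Its log2 fold change was the largest of the members, 2.48 ± 0.29 (SE; adjusted p by limma = 0.41) with all RD libraries and 2.57 ± 0.15 (SE; adjusted p = 0.000402) without RD1. GAS1 had 619, 1018 and 1141 FPKM in RD and 345 FPKM in ControlSYN3, and CWP2 had 8339, 11028 and 11624 FPKM in RD and 4242 FPKM in ControlSYN3. In both genes RD1 was the RD library closest to ControlSYN3, with log2 fold changes without RD1 of 1.64 ± 0.17 (SE; adjusted p by limma = 0.00128) for GAS1 and 1.42 ± 0.22 (SE; adjusted p = 0.00415) for CWP2. CIS3 had 1082, 1366 and 1613 FPKM in RD and 429 FPKM in ControlSYN3, TOS6 had 558, 512 and 623 FPKM in RD and 195 FPKM in ControlSYN3 and GAS3 had 74.4, 83.8 and 98.2 FPKM in RD and 33.9 FPKM in ControlSYN3. All 3 were called higher without RD1, at 1.79, 1.53 and 1.40 on the log2 scale. FKS1 had 151, 214 and 238 FPKM in RD and 89.6 FPKM in ControlSYN3, with a log2 fold change of 1.32 ± 0.12 (SE; adjusted p by limma = 0.000822) without RD1. The others called higher without RD1 were CWP1, ECM33, KRE6, GAS5, UTR2, EXG1 and SCW10.

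Several of these values turned on RD1. UTR2 had 43.3, 157 and 214 FPKM in RD and 58.7 FPKM in ControlSYN3: RD1 lay below ControlSYN3 and RD5 and RD6 above it, and the log2 fold change was 0.94 ± 1.03 (SE; adjusted p by limma = 0.621) with RD1 and 1.63 ± 0.19 (SE; adjusted p = 0.00189) without. PIR3 had 730.5, 237 and 195 FPKM in RD and 570.4 FPKM in ControlSYN3, where RD1 lay above ControlSYN3 and RD5 and RD6 below. It was -0.82 ± 0.90 (SE; adjusted p by limma = 0.621) with RD1 and -1.41 ± 0.16 (SE; adjusted p = 0.00166) without. CWP1 had 119.6, 298 and 541 FPKM in RD and 118 FPKM in ControlSYN3, with RD1 at the level of ControlSYN3. DSE1, DSE4 and GAS2 were the other members called lower without RD1, at -1.38, -0.54 and -0.67 on the log2 scale. The ratio of FKS1 to GSC2 was 1.24, 2.56 and 4.66 in RD and 0.776 in ControlSYN3, and that of PIR3 to PIR1 was 0.978, 0.294 and 0.248 in RD and 0.936 in ControlSYN3. The stationary-phase markers summed to 18367, 12217 and 9058 FPKM in RD and 15182 FPKM in ControlSYN3, with RD1 the only RD library above ControlSYN3, and their part in these differences was not tested. The chitin synthases were not called, with or without RD1: CHS3 had 35.8, 38.6 and 42.3 FPKM in RD and 38.7 FPKM in ControlSYN3, CHS2 had 59.6, 33.3 and 35.6 FPKM in RD and 34.8 FPKM in ControlSYN3 and CHS1 had 75.5, 112 and 111 FPKM in RD and 135 FPKM in ControlSYN3.

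**Figure D5:**
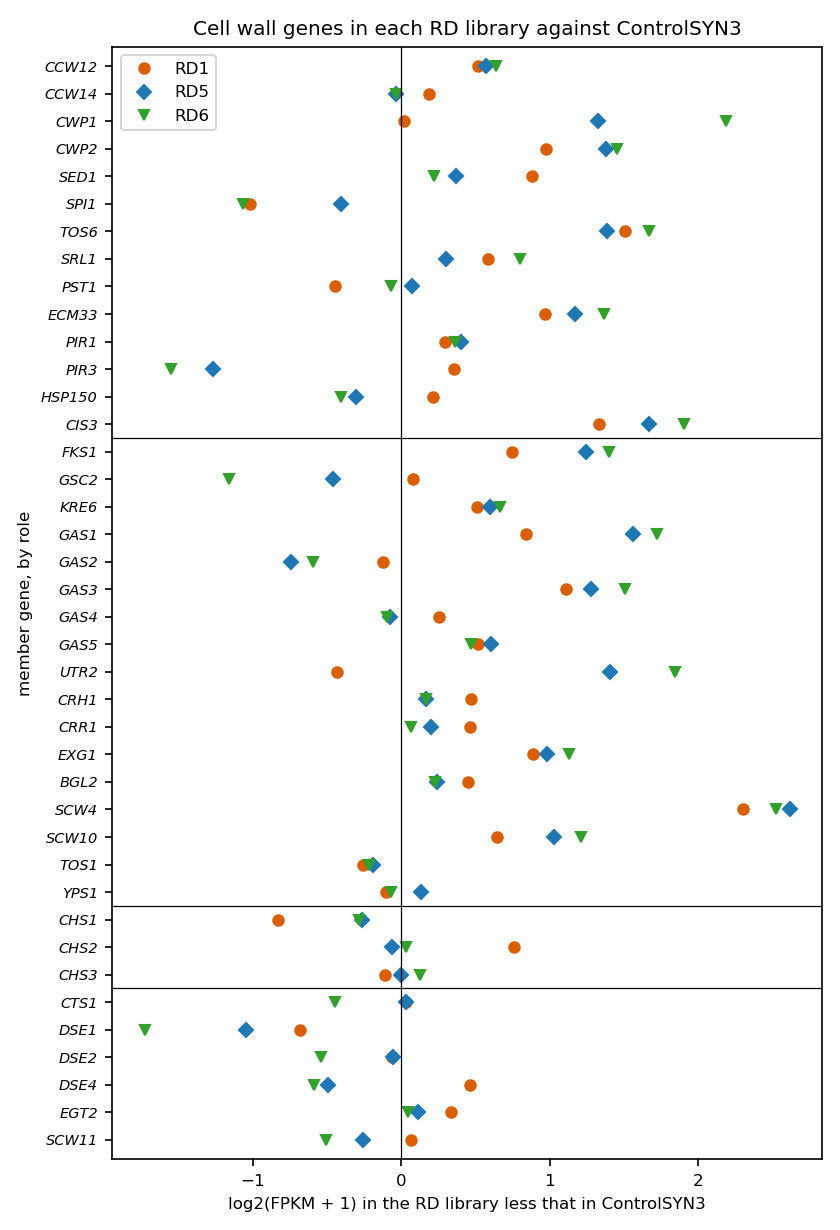
Difference in log2(FPKM + 1) of each RD library from ControlSYN3 for the 40 genes, in the same order and with the same black lines as the map of levels. SCW4 lies furthest to the right, and RD1 (circles) stands on the other side of zero from RD5 and RD6 in UTR2 and PIR3.

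In the median of the 40 genes the members varied more among GD libraries than among SD or RD libraries. The 6 separation genes varied more in SD than in GD, and the spread over all genes was not computed. The highest GD library exceeded the lowest by 1.78-fold in the median of the 40 genes, the highest SD library by 1.34-fold and the highest RD library by 1.40-fold. GD2 was the highest GD library in 20 of the 40 genes, and GD3 the lowest in 23. GD3 also had the lowest median over all genes. The all-gene medians against the control were -0.38, -0.37 and -0.54 in GD1, GD2 and GD3 on the log2(FPKM + 1) scale. The counts of members were not corrected for that shift, and the same counts over all genes were not made. PIR3 had 116, 336 and 81.3 FPKM in GD, and PST1 had 255, 521 and 186 FPKM in GD. GD2 was well above GD1 and GD3 in both, on the side of SD. GSC2 had 107, 154 and 33.3 FPKM in GD, with GD3 nearest to the control. BGL2, CHS3, SED1 and CCW12 spread least, by 1.07-fold, 1.09-fold, 1.11-fold and 1.12-fold between the highest and lowest GD library.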

How the data were processed

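Polyadenylated RNA of 11 libraries was measured: 3 of GD, 3 of SD, 3 of RD, and the wild-type libraries control and ControlSYN3. The authors deposited FPKM per gene in 2 tables, one with GD, SD and control, the other with RD and ControlSYN3. RSEM, Bowtie2, BWA and the build R64 are named in the submitters' processing notes, without versions or roles; strand handling and the counting of shared reads are not given in the sources used here. The deposited FPKM carry no read counts: in a test for whole fragments, 46.2 to 65.2% of the low values of a library came within 0.1 of a whole number, so counts were not recovered, the depth is unknown and no count test was run.

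The 40 members were matched by NCBI Gene number; 5774 of 5936 and 5770 of 5931 table rows matched the R64 annotation. The members and all gene lists were chosen with earlier results of these data known. Named are all members and, of each further wall list, up to 2 called genes at each end of a comparison; SWI4, RLM1 and SLT2, and values of a named gene in a further comparison, were added after the values were seen, and 1 gene that the rule names is not reported here. The tables were fitted separately on the log2(FPKM + 1) scale with limma (version 3.58.1; R version 4.3.3), using a mean per group, a variance trend and robust empirical Bayes. Genes averaging under 1 FPKM were left out, which kept 5899 and 5895. p-values were Benjamini-Hochberg adjusted over all of them at 0.05. Fold changes on this scale understate those of low genes. The method was tested on simulated data. Alternatives were a pseudocount of 0.1, no minimum and a minimum of 10 FPKM, median-of-ratios scaling, the compared groups alone, each library left out and a replicate block. Sequences and coordinates come from the R64 genome, whose gene models hold coding length only; 500 bases before each start codon were searched. Tables were handled in Python 3.11.15 with pandas 2.3.3.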

Additional observations from a re-analysis of the deposited data

Results flagged for a closer look

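In 6 of the 40 genes every GD library lay on the upper side of the control and every SD library on the lower side, and GD exceeded SD in the limma fit. These were CWP2, SRL1, CIS3, GAS1, TOS1 and CHS3. They were picked from these same values, and the share of all genes with this pattern was not computed, so the count is a description only. The GD minus SD differences on the log2(FPKM + 1) scale were 1.91 for CWP2, 2.50 for SRL1, 2.30 for CIS3, 2.18 for GAS1, 2.12 for TOS1 and 0.60 for CHS3. Of these genes, CWP2 and GAS1 were called against the control in GD, and SRL1, CIS3 and TOS1 in SD. CHS3 was called in neither, but with median-of-ratios scaling it was called in GD, and SD1, at 39.8, then lay above the control, at 37.9 scaled FPKM. The other 5 genes kept the GD and SD libraries on opposite sides of the control with that scaling.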

How the results depend on the processing

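A pseudocount of 0.1, no minimum and a minimum of 10 FPKM moved no count of members by more than 1.5 times, and no call changed sign under any alternative. The minimum of 10 FPKM removed GAS4 from the RD comparison, which then held 39 members. With median-of-ratios scaling the members called lower were 0 in GD and 6 in SD against the control, and the medians of the members were 1.03 in GD and 0.56 in SD, while all genes had 550 higher and 530 lower in GD and 1103 and 1032 in SD. In the fit of GD and control alone 2 members, DSE2 and EGT2, were called higher and 0 lower, with 57 and 176 of all genes, and that of SD and control alone called 1050 and 2600 genes. Leaving out 1 library at a time gave 7 to 15 members higher and 0 to 3 lower in GD against the control, 9 to 13 higher and 8 to 13 lower in SD against the control, and 12 to 18 higher and 2 to 6 lower in GD against SD. In RD against ControlSYN3 it gave 0 to 14 higher and 0 to 4 lower, with 14 and 4 without RD1 and 0 without RD5 or RD6. The labels give GD and SD the same numbers, but same-numbered libraries did not deviate together (Pearson r across genes -0.126, -0.18 and -0.166). With 3 libraries per group this cannot show whether they were prepared as pairs, and the main fit used no pairing. With the replicate block 14 members were higher and 3 lower in GD than in SD, with a median of 0.44, and CCW12, HSP150 and KRE6 lost their calls. The causes of these changes were not tested. In all alternatives 2 of 13 calls were kept in GD against the control, 15 of 24 in SD against the control and 14 of 20 in GD against SD, and depth sets no stated limit because it is unknown.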
